A study of Mus musculus with 26 samples.

Results

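The genes of MHC class I antigen presentation were followed in primary mouse keratinocytes with and without IL17A and TNFα. The members were chosen by symbol and comprised the class I heavy chains *H2-K1* and *H2-D1*, the class I light chain *B2m*, the peptide transporter and loading genes *Tap1*, *Tap2* and *Tapbp*, the immunoproteasome subunits *Psmb8*, *Psmb9* and *Psmb10*, and the transcriptional regulator *Nlrc5*. These were 10 of the 56738 gene symbols measured, and 10 of 10 were among the 16893 genes with a mean normalized count over 10.

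Bulk RNA sequencing gave the expression of these genes in keratinocytes from neonates aged 2 days, which were wild-type (WT) or lacked *Pla2g4d* (KO), both on the C57BL/6NJ background. The KO line was made by deletion of exon 3 with CRISPR-Cas9 and was kept as homozygotes after backcrosses. Cells were grown for 4 days in a medium with 0.06 mM CaCl2, each animal in its own culture with 2 wells pooled per animal, and then left untreated (basal) or exposed to IL17A and TNFα, each at 20 ng/ml, for 24 h. There were 5 WT and 8 KO mice, and the cells of each mouse were sequenced in both states, giving 26 libraries. The total count per library ranged from 42072745 to 78102858. The question addressed was how the class I pathway responded to the cytokines and whether *Pla2g4d* deficiency altered its level or its response.

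The targeted gene *Pla2g4d* was measured in each library in read counts scaled to the normalized library size (CPM). In basal cells *Pla2g4d* reached 1.22, 4.41, 3.14, 3.34 and 4.63 CPM in the WT mice 1 to 5, and in KO mice it ranged from 1.15 to 2.98 CPM with a median of 2.10. With cytokines the WT values were 28.6, 65.2, 47.1, 57.2 and 62.9 CPM, and the KO values ranged from 29.2 to 59.2 CPM with a median of 36.2. The ranges of the genotypes overlapped under both conditions. Between genotypes the log2 fold change of *Pla2g4d* was -0.70 ± 0.26 (SE, adjusted p = 0.0935) in basal cells and -0.45 ± 0.23 (adjusted p = 0.345) with cytokines (edgeR quasi-likelihood test, p adjusted after Benjamini and Hochberg). The basal difference did not pass the threshold of 0.1 in 10 of the 13 fits that left out a mouse (WT2 to WT5 and KO1 to KO6, adjusted p of 0.102 to 0.274), nor with the mouse as a random block (0.519) or when only the basal libraries were fitted (0.199), and the difference with cytokines passed without WT1 (0.0357). Since reads were counted over the whole gene, exons that the deletion spares contribute to these values. The counts are per gene, and reads over exon 3 alone were not analysed here.

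MHC class I molecules present short peptides from inside the cell to CD8 T cells. The peptides are cut by the proteasome, in which inducible subunits can take the place of constitutive ones, carried into the endoplasmic reticulum by the TAP transporter, and loaded with the help of tapasin onto a heavy chain paired with beta-2 microglobulin. Keratinocytes express this pathway and are known to raise it under interferon-γ, through factors that include IRF1, NF-κB and NLRC5.

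Of the 10 members, 7 lie on mouse chromosome 17 in or near the MHC region of GRCm39. *Psmb9* (34400960 to 34406738, minus strand), *Tap1* (34405996 to 34416199, plus strand), *Psmb8* (34416690 to 34420428, plus strand) and *Tap2* (34422501 to 34435829, plus strand) are neighbours there. *Tapbp* (34134873 to 34148267, plus strand), *H2-K1* (34214987 to 34219321, minus strand) and *H2-D1* (35481691 to 35486475, plus strand) lie on the same chromosome, *Psmb10* (106662362 to 106665077, minus strand) and *Nlrc5* (95160984 to 95253900, plus strand) on chromosome 8, and *B2m* (121977957 to 121983594, plus strand) on chromosome 2.

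With IL17A and TNFα the transcripts of most members of the class I pathway rose in WT cells, though not those of *Tap1* and *Nlrc5*. A gene was taken as risen or fallen at an adjusted p under 0.1, and as called when the fold change was also over 1.5. In WT cells 8 members rose, which were *H2-K1*, *H2-D1*, *B2m*, *Tapbp*, *Tap2*, *Psmb8*, *Psmb9* and *Psmb10*, against 18.8% of all genes tested, and *Nlrc5* fell, against 18.0% of all genes. Called higher were *Tapbp*, *Tap2*, *Psmb8*, *Psmb9* and *Psmb10*, against 8.65% of all genes, and called lower was *Nlrc5*, against 5.26%. In KO cells 7 members rose, the same as in WT except for *B2m*, against 17.7% of all genes, and *Nlrc5* fell, against 18.1%. With the mouse as a block *B2m* passed in KO cells too (adjusted p = 0.0963 with a random block in limma-voom, 0.0134 with a fixed block in edgeR). Called higher in KO cells were *Tap2*, *Psmb8*, *Psmb9* and *Psmb10*, against 6.33% of all genes, and called lower was *Nlrc5*, against 4.55%. The median log2 fold change of the members was 0.64 in WT and 0.43 in KO cells, beside 0.01 and 0.00 over all genes. The effects of the cytokines in WT and KO cells rest on separate libraries and are given side by side. Since the RNA came from whole cultures, fewer cells of a type and less RNA per cell cannot be told apart.

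**Figure D1:**
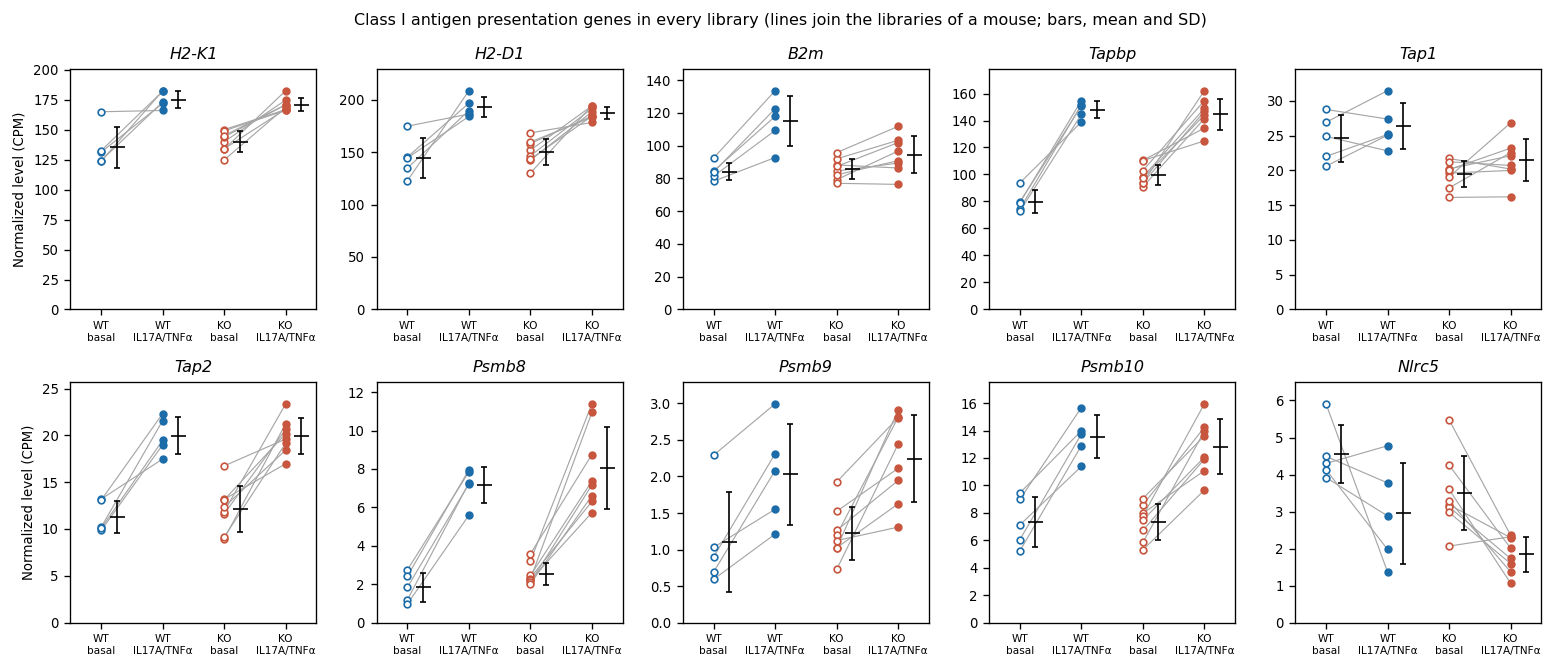
Normalized level in CPM (vertical axis, linear from 0) of the 10 class I pathway genes in all 26 libraries by group, WT in blue and KO in red, open symbols basal and filled symbols with IL17A and TNFα. Lines join the libraries of a mouse and bars give the mean and SD of 5 WT or 8 KO libraries; *Psmb8* had means of 1.83 and 7.18 CPM in WT and of 2.52 and 8.04 CPM in KO cells, while the groups of *Tap1* overlapped.

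The heavy chains *H2-K1* and *H2-D1*, which form the peptide-binding groove, rose by a modest amount in both genotypes. In basal WT cells *H2-K1* reached 165, 131, 124, 124 and 133 CPM in mice 1 to 5, and with cytokines 166, 172, 182, 173 and 182 CPM. In KO cells *H2-K1* ranged from 125 to 150.1 CPM (median 142) in the basal state and from 166 to 183 CPM (median 170) with cytokines. The basal library of WT1 was higher than the other WT basal libraries, and yet within each genotype no basal library reached the lowest treated one. The log2 fold change of *H2-K1* was 0.37 ± 0.06 (SE, n = 5 mice, adjusted p = 1.26e-05) in WT and 0.29 ± 0.05 (n = 8 mice, adjusted p = 1.71e-05) in KO cells by edgeR. *H2-D1* moved alike, with 123 to 175 CPM in basal and 184 to 209 CPM in treated WT cells, and 130.0 to 168 and 178 to 194 CPM in the corresponding KO cells. Its log2 fold change was 0.42 ± 0.07 in WT (adjusted p = 1.25e-05) and 0.32 ± 0.05 in KO cells (adjusted p = 2e-05), below a fold of 1.5, with no overlap between basal and treated libraries of a genotype. Both heavy chains were higher with cytokines in each of the 13 mice.

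The light chain *B2m*, which every class I molecule needs to reach the cell surface, rose in WT cells. Basal WT libraries held 78.3, 92.5, 81.4, 84.6 and 83.9 CPM and treated ones 92.8, 134, 109, 118 and 123 CPM. In KO cells *B2m* ranged from 77.0 to 95.8 CPM (median 85.9) in the basal state and from 76.4 to 112 CPM (median 93.8) with cytokines. The WT groups were separate by a narrow margin and the KO groups overlapped, with the treated library of KO4 the lowest of all. The log2 fold change of *B2m* was 0.45 ± 0.09 in WT (adjusted p = 0.000117) and 0.14 ± 0.07 in KO cells (adjusted p = 0.124), and the treated library held more *B2m* in 5 of 5 WT and 6 of 8 KO mice. When the mouse was entered as a block, the KO value passed the threshold (adjusted p = 0.0963 with a random block in limma-voom and 0.0134 with a fixed block in edgeR), as it did without WT1 (0.0776) or KO4 (0.0653), with a sex score as covariate (0.0933) and when only the KO libraries were fitted (0.0976). The difference between these effects, the interaction of genotype and cytokines, was -0.31 ± 0.11 on the log2 scale (adjusted p = 0.289), and it passed only with the mouse as a fixed block (adjusted p = 0.0168, against 0.169 with a random block).

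Promoter sequences were taken for these genes because the heavy chains and the light chain are known to share control elements. RefSeq windows from 250 bases before to 50 bases after the gene start, on GRCm38.p6, were found for 8 of the 10 members, all but *Tap2* and *Nlrc5*. On both strands they were searched for an NF-κB type motif (GGG, any 2 bases, TT, any base, CC), an interferon regulatory factor (IRF) type motif TTTCNNTT, a longer IRF type (TTTC, any 2 bases, TTTC) that contains it, and TGACGC, the core of the X2 or CREB/ATF element. The windows with a match of these motifs are printed from 5′ to 3′ in lower case with the matches in capitals, since *H2-K1*, *H2-D1* and *B2m* share matches.
H2-K1 (chr17:34000298-34000597, minus strand): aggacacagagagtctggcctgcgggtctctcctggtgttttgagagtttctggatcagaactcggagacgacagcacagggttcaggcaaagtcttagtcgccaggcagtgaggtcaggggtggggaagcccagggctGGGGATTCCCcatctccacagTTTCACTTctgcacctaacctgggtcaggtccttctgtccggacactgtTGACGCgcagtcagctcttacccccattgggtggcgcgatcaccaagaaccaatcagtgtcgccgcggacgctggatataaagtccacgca
H2-D1 (chr17:35262844-35263143, plus strand): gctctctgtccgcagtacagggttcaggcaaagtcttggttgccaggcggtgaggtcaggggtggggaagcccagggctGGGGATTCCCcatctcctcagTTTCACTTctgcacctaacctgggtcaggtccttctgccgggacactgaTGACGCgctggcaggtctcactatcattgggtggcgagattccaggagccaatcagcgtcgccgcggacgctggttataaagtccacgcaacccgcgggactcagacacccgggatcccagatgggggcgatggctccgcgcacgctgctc
B2m (chr2:122147437-122147736, plus strand): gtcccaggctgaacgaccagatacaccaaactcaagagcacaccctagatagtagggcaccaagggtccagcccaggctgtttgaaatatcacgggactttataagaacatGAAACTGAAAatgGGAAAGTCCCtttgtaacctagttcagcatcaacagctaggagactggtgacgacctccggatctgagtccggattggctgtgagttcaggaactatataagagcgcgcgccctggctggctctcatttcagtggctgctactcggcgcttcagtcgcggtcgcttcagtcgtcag

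The NF-κB type motif was present in the windows of *H2-K1* (positions -111 to -102 from the gene start), *H2-D1* (-171 to -162) and *B2m* (-126 to -117, minus strand), and in 4.71% of 27025 mouse promoter windows (5.31% of the 11247 windows of tested genes). The same 3 windows held TTTCNNTT, which occurs in 24.2% of all windows (17.5% for tested genes), and that of *B2m* lies within the longer IRF type match, found in 3.49% (2.82%). In each of the 3 windows the NF-κB type and IRF type matches lay near each other. TGACGC was found in *H2-K1* and *H2-D1* (7.50% of all windows and 12.5% of those of tested genes). The windows of *H2-K1* and *H2-D1* were 88.3% identical over 239 aligned bases, so their matches are not independent of each other. Those of *Tap1* and *Psmb9*, which start from opposite strands, share 275 bases. No match of the motifs given here was found in the windows of *Tapbp*, *Tap1*, *Psmb8*, *Psmb9* and *Psmb10*. A further motif that was searched is not reported here. A match is a description of letters and was not tested as a binding site.

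*Psmb8* had the largest change of the 10 members in both genotypes. It encodes the chymotrypsin-like subunit of the immunoproteasome, which takes the place of *Psmb5*, and reached 2.74, 1.19, 2.42, 0.976 and 1.84 CPM in basal and 7.85, 7.27, 7.96, 5.59 and 7.22 CPM in treated WT cells of mice 1 to 5. In KO cells it ranged from 2.01 to 3.58 CPM (median 2.30) and from 5.73 to 11.4 CPM (median 7.27). Treated libraries lay above all basal ones, and those of KO4 and KO7 were the highest. The fold change of *Psmb8* was 3.91 in WT (log2 1.97 ± 0.24, adjusted p = 1.25e-07) and 3.19 in KO cells (log2 1.67 ± 0.18, edgeR adjusted p = 2.24e-08). *Psmb10*, which takes the place of the trypsin-like subunit *Psmb7*, lay between 5.22 and 9.45 CPM in basal and between 11.4 and 15.7 CPM in treated WT libraries, and between 5.30 and 9.04 CPM and between 9.65 and 15.9 CPM in the KO ones, again with no overlap. Its log2 fold change was 0.88 ± 0.16 (adjusted p = 5.6e-05) in WT and 0.80 ± 0.12 (adjusted p = 6.72e-06) in KO cells.

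*Psmb9*, which takes the place of the caspase-like subunit *Psmb6*, was the least abundant of these subunits, with 30 to 218 counts per library. Its level was 2.29, 0.593, 1.03, 0.692 and 0.898 CPM in basal and 2.99, 1.21, 1.55, 2.08 and 2.31 CPM in treated WT cells. In KO cells *Psmb9* ranged from 0.727 to 1.92 CPM (median 1.16) in the basal state and from 1.31 to 2.91 CPM (median 2.28) with cytokines. Basal and treated libraries overlapped in both genotypes, in WT through the high basal library of WT1, but each mouse was higher with cytokines than without. *Psmb9* rose with a log2 fold change of 0.88 ± 0.32 in WT (adjusted p = 0.037) and 0.87 ± 0.25 in KO cells (adjusted p = 0.0089). The WT call was lost without WT4 (log2 0.74, adjusted p = 0.14), without WT5 (0.77, adjusted p = 0.139) and when only the WT libraries were fitted (0.88, adjusted p = 0.11). The WT value passed with the mouse as a random block in limma-voom (0.97, adjusted p = 0.015) and as a fixed block in edgeR (0.98, adjusted p = 0.00682). *Psmb9* and *Tap1* overlap on opposite strands, and 30.4% of the 150-base stretches of the *Psmb9* transcript also occur in *Tap1*. The libraries were strand-specific, but the strand setting of the counting was not given in the sources used here, and its part in the level of *Psmb9* was not tested.

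The constitutive subunits had smaller changes. *Psmb5* reached 85.8 ± 3.84 CPM (SD) in basal and 93.9 ± 5.97 CPM in treated WT cells, with a log2 fold change of 0.13 ± 0.06 (SE, adjusted p = 0.0824), and -0.02 ± 0.05 (adjusted p = 0.843) in KO cells. The WT value of *Psmb5* did not pass without WT1 (adjusted p = 0.214), WT2 (0.11), WT5 (0.319), KO6 (0.129) or KO8 (0.124), with no filter on low counts (0.153) or another one (0.108), or when only the WT libraries were fitted (0.103). *Psmb6* rose in WT cells (log2 0.16 ± 0.05, adjusted p = 0.0181, but 0.148 without WT5), beside 0.02 ± 0.04 (adjusted p = 0.745) in KO cells, and *Psmb7* had values of 0.03 ± 0.05 (adjusted p = 0.714) and -0.07 ± 0.04 (adjusted p = 0.281). The interactions were -0.15 ± 0.07 for *Psmb5* (adjusted p = 0.552) and -0.14 ± 0.07 for *Psmb6* (adjusted p = 0.539). Per kb of transcript, *Psmb8* amounted to 2.14 ± 0.873% (SD) of *Psmb5* in basal and 7.66 ± 1.08% in treated WT cells, and to 2.68 ± 0.499% and 8.72 ± 2.51% in KO cells. On the same scale *Psmb10* went from 5.01 ± 0.833% to 9.09 ± 0.787% of *Psmb7* in WT and from 4.71 ± 0.795% to 8.59 ± 1.27% in KO cells. *Psmb9* remained the lowest, going from 0.792 ± 0.413% to 1.33 ± 0.418% of *Psmb6* in WT and from 0.829 ± 0.224% to 1.499 ± 0.412% in KO cells. All 3 ratios were higher with cytokines than without in 5 of 5 WT and 8 of 8 KO mice, and the transcripts of the constitutive subunits still exceeded those of the inducible ones in each library.

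**Figure D2:**
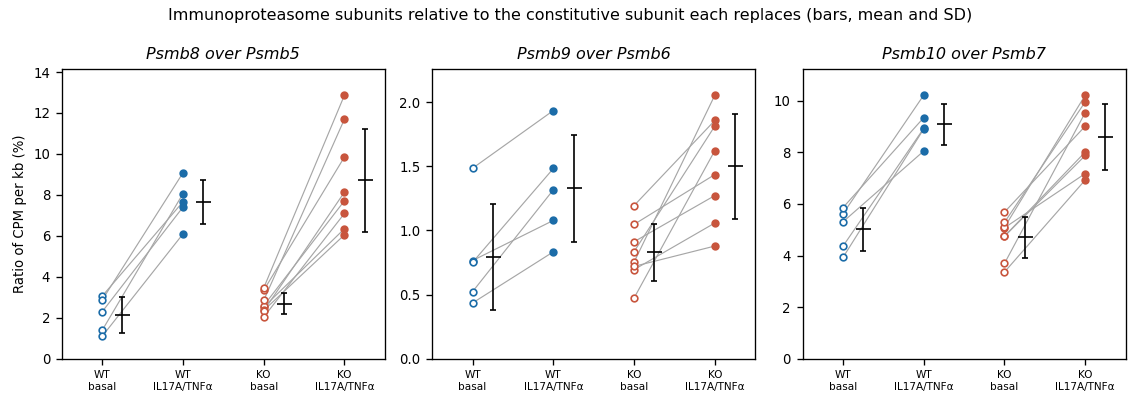
Ratio of each immunoproteasome subunit to the constitutive subunit it replaces (vertical axis, CPM per kb of transcript in percent, from 0) in the 26 libraries by group, with lines joining the libraries of a mouse and bars for mean and SD. *Psmb8* over *Psmb5* went from 2.14% to 7.66% in WT and from 2.68% to 8.72% in KO cells, and each line points upwards.

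Among the transport and loading genes, *Tapbp* and *Tap2* rose and *Tap1* did not pass the test. *Tapbp* encodes tapasin, which bridges the transporter and the empty class I molecule. It reached 93.8, 79.6, 74.4, 72.7 and 79.1 CPM in basal and 139, 151, 152, 145 and 155 CPM in treated WT cells, and in KO cells 90.9 to 111 CPM (median 97.7) and 125 to 162 CPM (median 145). Treated libraries lay above all basal ones, while in the basal state each of the 8 KO libraries lay above 4 of the 5 WT libraries and WT1 lay among them. The log2 fold change of *Tapbp* was 0.89 ± 0.07 in WT (fold 1.85, adjusted p = 1.6e-11) and 0.54 ± 0.05 in KO cells (fold 1.45, edgeR adjusted p = 2.98e-09), so it was called in WT cells alone and, without KO5, also in KO cells (log2 0.59). The interaction was -0.35 ± 0.09 (adjusted p = 0.0568).

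*Tap2* and *Tap1* encode the subunits of the peptide transporter. *Tap2* lay between 9.85 and 13.2 CPM in basal and between 17.5 and 22.3 CPM in treated WT libraries, and between 8.96 and 16.7 CPM and between 17.0 and 23.4 CPM in the KO ones. The groups did not overlap, and the log2 fold change of *Tap2* was 0.82 ± 0.13 in WT (adjusted p = 9.1e-06) and 0.72 ± 0.10 in KO cells (adjusted p = 1.86e-06). *Tap1* held 24.9, 20.6, 28.8, 22.01 and 26.9 CPM in basal and 22.8, 25.1, 27.4, 25.2 and 31.5 CPM in treated WT cells, and in KO cells 16.1 to 21.7 CPM (median 19.9) and 16.2 to 26.8 CPM (median 21.4). These ranges overlapped, and *Tap1* was higher with cytokines in 3 of 5 WT and 6 of 8 KO mice. Its log2 fold change was 0.10 ± 0.11 in WT (adjusted p = 0.556) and 0.14 ± 0.09 in KO cells (adjusted p = 0.24). Of its 150-base stretches 7.27% occur in *Psmb9*. Stretches shared with other annotated genes made up 16.8% for *Tapbp*, 16.7% for *H2-D1*, 8.78% for *H2-K1* and 0.575% for *Tap2*, and there were 0 for *B2m*, *Psmb8*, *Psmb10* and *Nlrc5*. The part of shared stretches in the levels was not tested.

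*Nlrc5*, a coactivator of class I genes, was the member that fell. Basal WT libraries held 4.13, 5.91, 4.30, 3.92 and 4.49 CPM and treated ones 1.98, 1.37, 4.78, 2.88 and 3.77 CPM. In KO cells *Nlrc5* ranged from 2.07 to 5.48 CPM (median 3.24) in the basal state and from 1.07 to 2.36 CPM (median 1.87) with cytokines. The groups overlapped in both genotypes, and *Nlrc5* was lower with cytokines in 4 of 5 WT and 7 of 8 KO mice, WT3 and KO2 being the exceptions. The log2 fold change was -0.63 ± 0.27 in WT (adjusted p = 0.0789) and -0.92 ± 0.22 in KO cells (adjusted p = 0.00135). In WT the call was lost without WT1 (log2 -0.56, adjusted p = 0.169), WT2 (-0.33, adjusted p = 0.415) or WT4 (-0.67, adjusted p = 0.122), with no filter on low counts (adjusted p = 0.114), and when only the WT libraries were fitted (adjusted p = 0.128). It fell in the same cultures in which 8 members in WT and 7 in KO cells rose.

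**Figure D3:**
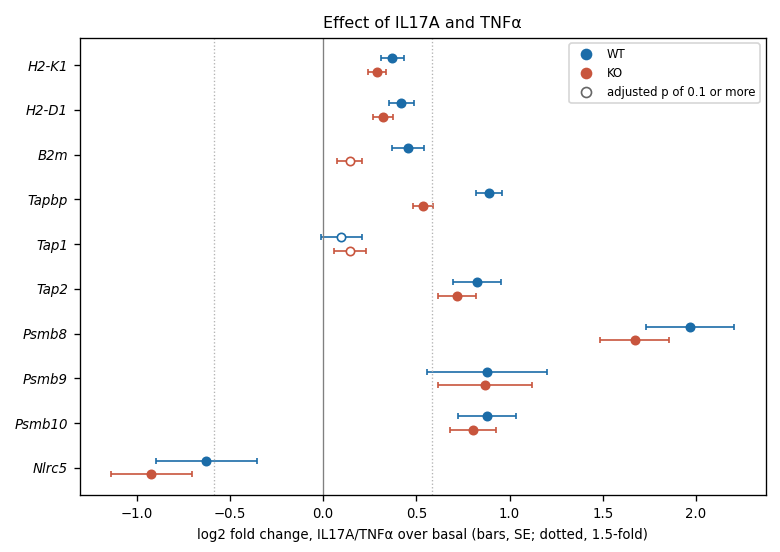
Effect of IL17A and TNFα on the 10 genes (horizontal axis, log2 fold change of treated over basal cells, with SE) in 5 WT mice (blue) and 8 KO mice (red); open symbols have an adjusted p of 0.1 or more and dotted lines mark a fold of 1.5. *Psmb8* lies farthest to the right at 1.97 and 1.67, and *Nlrc5* to the left of 0 at -0.63 and -0.92.

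Within mice, 113 of 130 pairs of gene and mouse were higher with cytokines, and 111 of 117 when *Nlrc5* was set aside. The 7 genes *H2-K1*, *H2-D1*, *Tapbp*, *Tap2*, *Psmb8*, *Psmb9* and *Psmb10* were higher in 13 of 13 mice. These counts were not made over all genes, and the genes of a mouse are not independent of each other. WT1 had the lowest change among WT mice for 8 of the 10 members, with log2 differences of 0.01 for *H2-K1*, 0.09 for *H2-D1* and 0.25 for *B2m*, beside 0.39 to 0.56, 0.35 to 0.77 and 0.43 to 0.55 in the other WT mice. *Pla2g4d* was also lowest in both libraries of WT1 among WT mice. KO1 had the lowest change among KO mice for *H2-K1*, *H2-D1*, *Tap2*, *Psmb8* and *Psmb10*.

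Per kb of transcript and within basal WT cells, the levels followed the order *H2-K1* (83.6 ± 10.5 CPM per kb, SD), *B2m* (77.5 ± 4.86), *H2-D1* (68.2 ± 9.10), *Tapbp* (26.8 ± 2.78), *Tap1* (7.94 ± 1.08), *Psmb10* (5.61 ± 1.39), *Tap2* (2.84 ± 0.428), *Psmb8* (1.08 ± 0.448), *Psmb9* (0.814 ± 0.508) and *Nlrc5* (0.600 ± 0.104). The neighbouring pairs *H2-K1* and *B2m*, *Psmb8* and *Psmb9*, and *Psmb9* and *Nlrc5* did not differ beyond the SD. The order on this scale was the same in basal KO cells. With cytokines *Psmb10* (10.3 ± 1.20 CPM per kb) came before *Tap1* (8.49 ± 1.05) in WT cells, as it did in KO cells (9.76 ± 1.53 and 6.92 ± 0.985). *H2-D1* (88.5 ± 2.71 CPM per kb) came before *B2m* (87.1 ± 10.3) in treated KO cells, a difference within the SD.

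The comparison of genotypes asked whether *Pla2g4d* deficiency altered the level of the pathway. Genotype and litter cannot be told apart in it, since the KO line was bred as homozygotes. In basal cells *Tapbp* was higher and *Tap1* lower in KO than in WT cells, against 7.57% of all genes higher and 6.06% lower at an adjusted p under 0.1. The log2 fold change was 0.32 ± 0.06 for *Tapbp* (WT 79.9 ± 8.28 and KO 99.7 ± 7.54 CPM, SD, adjusted p = 0.000851) and -0.34 ± 0.10 for *Tap1* (WT 24.6 ± 3.37 and KO 19.4 ± 1.87 CPM, adjusted p = 0.0256). The ranges of the genotypes overlapped for both genes, and the difference in *Tap1* did not pass without WT3 (log2 -0.28, adjusted p = 0.109). No member was called by edgeR, against 2.68% of all genes, while 3 had an unadjusted p under 0.05 (*Tapbp*, *Tap1* and *Psmb8*), and DESeq2 and limma-voom each called 0. *Psmb8* had a log2 fold change of 0.46 ± 0.22 (adjusted p = 0.2) and was called without WT1 (0.65, adjusted p = 0.0543).

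With cytokines *B2m* was lower in KO than in WT cells, with a log2 fold change of -0.28 ± 0.08 (WT 115 ± 15.3 and KO 94.6 ± 11.2 CPM, SD, adjusted p = 0.0638), against 1.62% of all genes lower. The ranges overlapped, and *B2m* did not pass without WT2 (adjusted p = 0.218), WT3 (0.124), WT4 (0.173), WT5 (0.171), KO1 (0.115), KO2 (0.135) or KO5 (0.132). *Tap1* again had a lower mean in KO cells (WT 26.4 ± 3.27 and KO 21.5 ± 3.06 CPM), with a log2 fold change of -0.30 ± 0.10 (adjusted p = 0.134) that passed with DESeq2 (0.0929) and without WT1 (0.0401) or KO8 (0.0423). *Nlrc5* had a log2 fold change of -0.68 ± 0.24 (WT 2.96 ± 1.37 and KO 1.84 ± 0.482 CPM, adjusted p = 0.168) and was called without WT1 (-0.79, adjusted p = 0.0566), WT2 (-0.86, adjusted p = 0.0923) or KO8 (-0.73, adjusted p = 0.0917). *Tapbp*, higher in basal KO cells, showed -0.03 ± 0.06 (adjusted p = 0.865) with cytokines. By edgeR 0 members were called, against 0.704% of all genes, with 3 at an unadjusted p under 0.05 (*B2m*, *Tap1* and *Nlrc5*) and 0 by DESeq2 and by limma-voom. For *H2-K1*, *H2-D1*, *Tap2*, *Psmb9* and *Psmb10* the genotypes overlapped in both conditions, with log2 differences between -0.08 and 0.16 and adjusted p from 0.653 (*H2-K1* in basal cells) upwards. Without WT1, *H2-K1* passed as higher in basal KO cells (0.13, adjusted p = 0.0476).

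**Figure D4:**
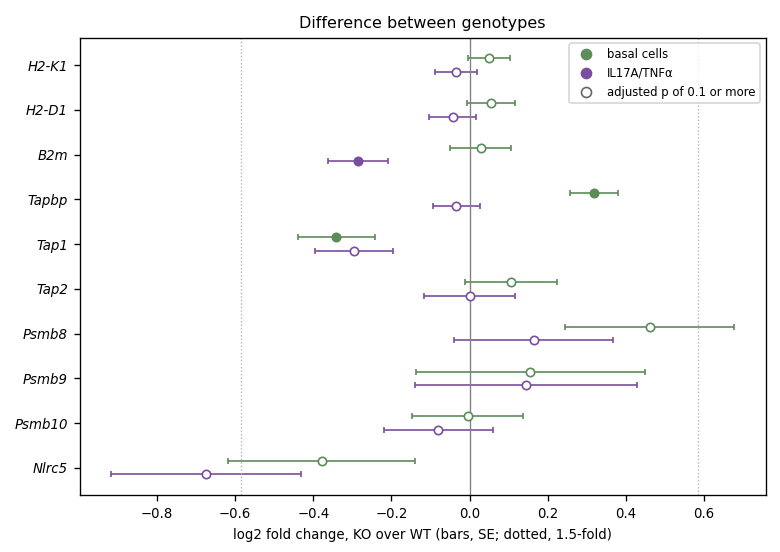
Difference between genotypes for the 10 genes (horizontal axis, log2 fold change of KO over WT cells, with SE, 5 WT and 8 KO mice) in basal cells (green) and with IL17A and TNFα (purple); open symbols have an adjusted p of 0.1 or more and dotted lines mark a fold of 1.5. *Tapbp* (0.32) and *Tap1* (-0.34) passed in basal cells and *B2m* (-0.28) with cytokines.

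The interaction asked whether the response to the cytokines differed between genotypes. *Tapbp* rose less in KO than in WT cells (interaction -0.35 ± 0.09, adjusted p = 0.0568), against 0.781% of all genes with a negative interaction at an adjusted p under 0.1. Its starting level was higher in KO cells and its level with cytokines was 148 ± 6.32 CPM in WT cells, close to the 145 ± 11.5 CPM of KO cells (SD). The interaction did not pass without WT2 (adjusted p = 0.152), WT3 (0.184), WT4 (0.188), WT5 (0.194), KO1 (0.139) or KO5 (0.135). By edgeR 0 members were called for the interaction, against 0.219% of all genes, with 2 at an unadjusted p under 0.05 (*B2m* and *Tapbp*) and 0 by DESeq2 and by limma-voom. The other members had interactions between -0.31 for *B2m* and 0.05 for *Tap1*.

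Genes around the pathway were taken from lists. Among 10 genes of class I loading and peptide trimming, 4 rose in WT and in KO cells (against 18.8% and 17.7% of all genes), namely *Psme1* and *Psme2*, which form the proteasome activator PA28, the aminopeptidase *Erap1* and the tapasin-related *Tapbpl*. *Psme2* was the gene called of the 10, against 8.65% of all genes called higher in WT and 6.33% in KO cells. Its log2 fold change was 0.82 ± 0.08 in WT (adjusted p = 9.91e-10) and 0.67 ± 0.06 in KO cells (adjusted p = 3.57e-10). The other PA28 gene *Psme1* rose by 0.55 ± 0.07 and 0.42 ± 0.06, *Tapbpl* by 0.57 ± 0.10 and 0.38 ± 0.08, and *Erap1* by 0.28 ± 0.07 and 0.29 ± 0.06 (log2). Another proteasome activator gene, *Psme3*, fell in both genotypes (-0.17 ± 0.04 and -0.12 ± 0.03), as did the chaperone *Hspa5* (-0.14 ± 0.06 in WT and -0.14 ± 0.05 in KO cells). The chaperone *Canx* fell in WT cells (-0.13 ± 0.05) beside 0.03 ± 0.04 in KO cells (interaction 0.16, adjusted p = 0.393), and falls were seen in 18.0% of all genes in WT and 18.1% in KO cells. In WT cells *Hspa5* did not pass without WT2 (adjusted p = 0.209), WT3 (0.112) or WT5 (0.174), nor *Canx* without WT2 (0.223), WT4 (0.116) or WT5 (0.216). With no filter (0.128 and 0.117) or only the WT libraries (0.102 and 0.104) neither passed. The median log2 fold change of the list was 0.02 in WT and 0.04 in KO cells. *Erap1*, *Tapbpl*, *Psme1*, *Psme3*, *Hspa5* and *Canx* were chosen after their values were seen. No gene of the list passed in either comparison of genotypes, against 7.57% of all genes higher and 6.06% lower in basal KO cells. With cytokines 1.62% of all genes were lower in KO cells.

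Of 14 constitutive 20S proteasome genes, *Psma6*, *Psmb5* and *Psmb6* rose in WT cells, against 18.8% of all genes, while in KO cells *Psma6* rose, against 17.7%, and *Psmb1* and *Psmb3* fell, against 18.1% (the last pair chosen after their values were seen). By edgeR 0 of the 14 were called in either genotype. Of all genes 8.65% were called higher and 5.26% lower in WT cells, and 6.33% and 4.55% in KO cells. The largest change was that of *Psma6*, an alpha-ring subunit, with 0.45 ± 0.05 in WT (adjusted p = 5.8e-09) and 0.37 ± 0.04 in KO cells (adjusted p = 2.16e-09). *Psmb1* had -0.08 ± 0.03 in KO and -0.07 ± 0.04 in WT cells (interaction -0.01, adjusted p = 0.985), and *Psmb3* -0.11 ± 0.05 and 0.02 ± 0.06 (interaction -0.13, adjusted p = 0.616). In KO cells *Psmb1* did not pass without WT4, KO2, KO3, KO5 or KO8 (adjusted p of 0.101 to 0.274), nor *Psmb3* without KO1, KO2, KO3 or KO8 (0.112 to 0.174). With no filter neither passed (0.249 and 0.137), nor did *Psmb1* when only the KO libraries were fitted (0.106). The list's median of 0.08 in WT and 0.00 in KO cells was below the members' median of 0.64 and 0.43.

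Of 20 other class I and class I-like genes, 13 were over the filter. In WT cells *H2-Q4*, *H2-M2*, *H2-T23* and *H2-T22* rose, against 18.8% of all genes, and in KO cells these and *H2-T10* and *H2-M3*, against 17.7%. *H2-Q4* lay between 2.62 and 5.59 CPM in basal and between 9.63 and 11.3 CPM in treated WT libraries (log2 1.30 ± 0.17, adjusted p = 6.02e-07), and between 3.33 and 7.48 CPM and between 7.99 and 10.7 CPM in the KO ones (0.70 ± 0.13, adjusted p = 0.000134). The Qa-1 gene *H2-T23* rose by 0.48 ± 0.09 and 0.37 ± 0.07, and *H2-T22* by 0.31 ± 0.08 and 0.24 ± 0.06 (log2, both chosen after their values were seen). The low-abundance *H2-M2* was called in WT (2.42 ± 0.55, adjusted p = 0.000965) and in KO cells (0.99 ± 0.41, adjusted p = 0.0665), the latter lost without KO5 (0.129), KO6 (0.121), KO7 (0.157) or KO8 (0.211). *H2-M3* (1.32 ± 0.42, adjusted p = 0.0173) and *H2-T10* (0.66 ± 0.27, adjusted p = 0.0635, 0.113 without KO1, 0.139 without KO2, 0.217 without KO7, 0.125 with no filter and 0.137 with the mouse as a fixed block) were called in KO cells, beside 0.92 ± 0.53 and -0.07 ± 0.34 in WT cells, with interactions of 0.41 (adjusted p = 0.926) and 0.73 (adjusted p = 0.648). The median of the 13 was 0.09 in WT and 0.38 in KO cells. For the interaction 0 of the 13 passed, *H2-Q4* and *H2-M2* included, beside 0.781% of all genes with a negative one. Between genotypes *Mr1*, which presents vitamin metabolites and was chosen after its values were seen, was lower in basal KO cells (-0.48 ± 0.13, adjusted p = 0.0144), 1 of the 13 genes against 6.06% of all genes.

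Of 19 regulators of class I transcription 17 were over the filter, and 9 rose in WT cells and 7 in KO cells, against 18.8% and 17.7% of all genes, while in KO cells *Nfyc* fell (log2 -0.18 ± 0.05, chosen after its values were seen, beside -0.08 ± 0.07 in WT cells, interaction -0.10, adjusted p = 0.795), against 18.1% of all genes. *Irf1*, an interferon-inducible activator of class I genes, had the largest change. It held 17.6, 12.4, 10.6, 12.1 and 9.64 CPM in basal and 36.2, 35.6, 29.7, 32.7 and 33.7 CPM in treated WT cells, and in KO cells 11.6 to 18.0 CPM (median 14.2) and 27.4 to 39.0 CPM (median 32.3). Treated libraries lay above all basal ones, and the log2 fold change of *Irf1* was 1.43 ± 0.13 in WT (adjusted p = 5.8e-10) and 1.18 ± 0.10 in KO cells (adjusted p = 1.76e-10). *Irf9* was called in WT cells (0.59 ± 0.16, adjusted p = 0.00498) and rose by 0.37 ± 0.13 in KO cells (adjusted p = 0.0258, interaction -0.22, adjusted p = 0.835).

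The same list held genes that differed between genotypes, beside 6.06% of all genes lower in basal KO cells and 1.62% lower with cytokines. *Irf9*, the DNA-binding subunit of the factor that acts downstream of type I interferon, was lower in KO than in WT cells with cytokines (-0.66 ± 0.14, adjusted p = 0.0207, but 0.105 without WT3) and in the basal state (-0.44 ± 0.14, adjusted p = 0.0509, over 0.1 without WT2, WT4, WT5 or KO3, at 0.135, 0.112, 0.115 and 0.101). Its partner *Stat2*, chosen after its values were seen, was lower in KO cells with cytokines (-0.35 ± 0.09, adjusted p = 0.0425, but 0.107 without WT2 and 0.181 without WT5) with no overlap of the genotypes. The NF-κB genes *Rela*, *Relb* and *Nfkb2* were higher in basal KO cells (0.13 ± 0.04, 0.36 ± 0.06 and 0.35 ± 0.05) and, as for *Tapbp*, had negative interactions (-0.22 ± 0.05 with adjusted p = 0.0429, -0.45 ± 0.09 with 0.0101 and -0.25 ± 0.06 with 0.0717), against 7.57% of all genes higher in basal KO cells and 0.781% with a negative interaction. *Rfx5* was lower in basal KO cells (-0.20 ± 0.07, adjusted p = 0.0806), but not without any of WT1 to WT4, KO3 or KO6 to KO8 (0.10 to 0.169), with no filter (0.12) or with the basal libraries alone (0.141). *Relb* kept its interaction in each fit that left out a mouse, whereas *Rela* lost it without WT2 (0.141), WT3 (0.126), WT4 (0.137) or KO1 (0.112), and *Nfkb2* without any of WT2 to WT5, KO1 to KO3 or KO5 to KO7 (0.104 to 0.324). With no filter *Rela* (0.203) and *Nfkb2* (0.211) lost it too. *Rela*, *Relb*, *Nfkb2* and *Rfx5* were chosen after their values were seen.

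Of 16 genes for interferons, their receptors and kinases 11 were over the filter. The interferon genes *Ifnb1* and *Ifng* were at 0 in all 26 libraries. In both genotypes 8 of the 11 rose (18.8% of all genes did in WT and 17.7% in KO cells). The list had a median of 0.30 in WT and 0.26 in KO cells. *Socs1*, a feedback inhibitor of JAK signalling, lay between 0.290 and 0.521 CPM in basal and between 1.55 and 3.25 CPM in treated WT libraries (log2 2.66 ± 0.31, adjusted p = 8.62e-08), and between 0.287 and 0.851 CPM and between 0.780 and 2.23 CPM in the KO ones (1.54 ± 0.24, adjusted p = 6.95e-06). The interaction of *Socs1* did not pass, and 0 of the 11 genes passed for it, beside 0.781% of all genes with a negative one. *Il10rb*, a receptor chain shared by interferon-λ and IL-10, was called in both genotypes (0.68 ± 0.10 and 0.66 ± 0.08, adjusted p = 3.86e-06 and 1.21e-07). *Jak1* fell in both genotypes (-0.21 ± 0.04 and -0.23 ± 0.03) and *Socs3* in KO cells (-0.39 ± 0.10, beside -0.15 ± 0.12 in WT cells, interaction -0.24, adjusted p = 0.693), against 18.0% of all genes in WT and 18.1% in KO cells, both chosen after their values were seen. In basal cells *Ifnar1* passed as higher and *Ifnlr1* as lower in KO cells, against 7.57% and 6.06% of all genes, with adjusted p of 0.0963 and 0.0919. *Ifnar1* did not pass without WT2 to WT5, KO1 to KO4, KO6 or KO7 taken singly (0.10 to 0.224), with DESeq2 (0.119) or its size factors (0.108), no filter (0.213) or another one (0.124), a sex score (0.102) or the basal libraries alone (0.223). *Ifnlr1* did not pass without WT2 to WT4, KO1 to KO3 or KO5 to KO7 taken singly (0.111 to 0.291), with no filter (0.136) or with the basal libraries alone (0.216). Both were chosen after their values were seen.

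MHC class II genes were followed beside those of class I. Of 11 class II and loading genes 5 were over the filter, and *H2-Aa*, *H2-Eb2*, *H2-DMb2*, *H2-Oa* and *H2-Ob* were at 0 in all 26 libraries. The 10 genes other than *Ctss* summed to 3.95 ± 0.496 CPM in basal and 4.14 ± 0.546 CPM in treated WT cells (SD), and to 3.72 ± 1.22 and 3.595 ± 0.702 CPM in KO cells, with *H2-DMa* the most abundant. *H2-Eb1* was called lower in WT cells (log2 -1.96 ± 0.67, adjusted p = 0.0254, but 0.104 without WT5), beside -0.78 ± 0.52 in KO cells (interaction 1.17, adjusted p = 0.731), against 5.26% of all genes called lower in WT cells. *H2-DMb1* was called higher in KO cells (0.63 ± 0.20, adjusted p = 0.0172), beside 0.50 ± 0.26 in WT cells (interaction 0.13, adjusted p = 0.963), against 6.33% called higher in KO cells. *H2-Ab1* was called lower in basal KO cells (-1.75 ± 0.59, adjusted p = 0.06) at 0.520 CPM or less in each library, against 2.68% called in either direction. This call was lost without WT2 (0.107), WT5 (0.16), KO1 (0.107) or KO2 (0.107), with no filter (0.149) or when only the basal libraries were fitted (0.176).

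**Figure D5:**
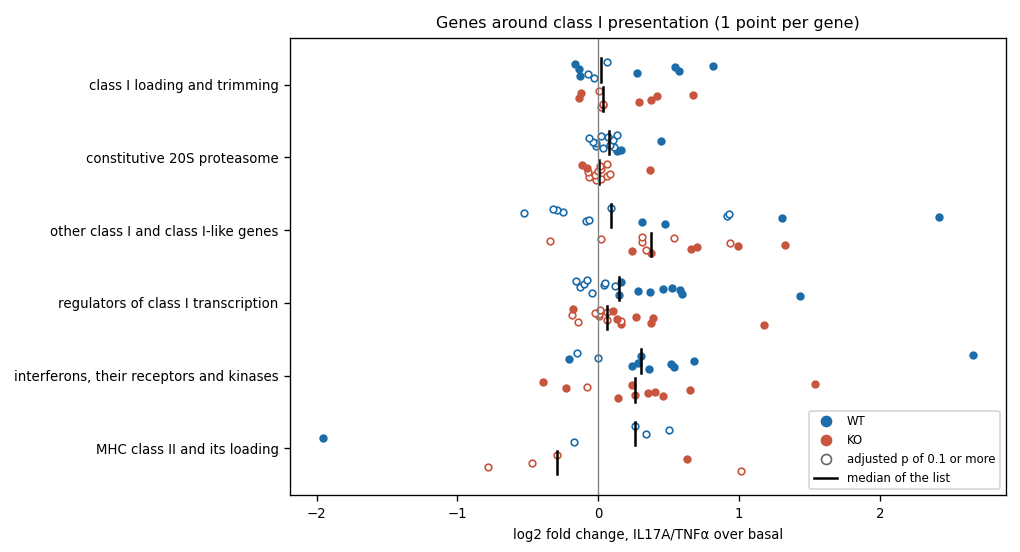
Effect of IL17A and TNFα on the genes of 6 lists around the class I pathway (horizontal axis, log2 fold change of treated over basal cells; a point is a gene over the filter, WT in blue, KO in red, open at an adjusted p of 0.1 or more, and black bars are list medians). The constitutive proteasome genes lie near 0 with medians of 0.08 and 0.00, and *Socs1*, at 2.66 in WT cells, lies farthest to the right.

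Markers of other cells in the cultures were summed beside these results. The 9 keratinocyte markers summed to 50080 ± 1660 CPM in basal and 36720 ± 691 CPM in treated WT cells and to 48310 ± 2038 and 36600 ± 427 CPM in KO cells (SD), with *Krt5* the most abundant. *Krt1*, *Krt10* and *Krt15* were called lower with cytokines in both genotypes, against 5.26% of all genes in WT and 4.55% in KO cells. In both genotypes *Krt5* (log2 -0.31 ± 0.05 and -0.31 ± 0.04), *Krt14* (-0.46 ± 0.04 and -0.45 ± 0.03) and *Dsp* (-0.54 ± 0.07 and -0.45 ± 0.05) fell as well. With these, 6 of the 9 fell, against 18.0% and 18.1% of all genes. *Itgb4* rose in both (log2 0.31 ± 0.06 and 0.24 ± 0.05) and *Itga6* in KO cells (0.16 ± 0.06, adjusted p = 0.0368, but 0.101 without KO5 and 0.102 without KO8, beside -0.01 ± 0.07 in WT cells, interaction 0.17, adjusted p = 0.608), against 18.8% and 17.7% of all genes. Between genotypes *Krt1* was called lower in KO cells in the basal state and, with *Krt10*, in the presence of cytokines (*Krt10* with an adjusted p of 0.0226, but 0.166 without WT3 and 0.137 with the mouse as a random block), against 2.68% of all genes called in either direction in basal cells and 0.704% with cytokines. In basal KO cells *Itgb4* (0.17 ± 0.06, adjusted p = 0.0459, but 0.146 without WT2 and 0.145 without WT4) and *Trp63* (0.16 ± 0.06, adjusted p = 0.0772) were higher, against 7.57% of all genes. *Trp63* did not pass without WT1, WT2, WT4, KO1 or any of KO4 to KO7 (0.101 to 0.205), with no filter (0.138) or when only the basal libraries were fitted (0.11). *Krt14*, *Dsp*, *Itgb4*, *Itga6* and *Trp63* were chosen after their values were seen. The 12 immune cell markers summed to 8.00 ± 3.30 and 10.2 ± 5.70 CPM in WT and 12.7 ± 5.62 and 12.0 ± 4.94 CPM in KO cells, from 3.91 CPM in basal WT1 to 22.03 CPM in basal KO8. In basal KO cells this sum was 6.39 to 9.61 CPM in KO1 to KO4 and 15.1 to 22.03 CPM in KO5 to KO8. The split was picked out after the values were seen, and its cause was not tested. *Lyz2* was the most abundant of the 12 markers, *Cd207* was at 0 in all libraries, and *Ptprc*, *Cd3e*, *Trdc*, *Itgax* and *Adgre1* were under the filter. Of the 6 over the filter *Cd52* was called lower in KO cells (log2 -1.02 ± 0.45, adjusted p = 0.0931, beside -0.22 ± 0.57 in WT cells, interaction -0.80, adjusted p = 0.828), against 4.55% of all genes. This call was lost without WT1, WT3, WT4, KO1, KO3 or any of KO5 to KO8 (adjusted p of 0.106 to 0.187), with no filter (0.184) or another one (0.119), with a sex score as covariate (0.104) and with the mouse as a random (0.134) or fixed block (0.213).

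The 5 melanocyte markers summed to 536 ± 72.0 and 424 ± 57.1 CPM in WT and to 541 ± 55.7 and 331 ± 31.3 CPM in KO cells, with *Tyrp1* the most abundant. Of these, *Dct*, *Pmel* and *Tyr* fell in WT cells, against 18.0% of all genes, and 5 of 5 in KO cells, against 18.1% (interactions of -0.31 for *Tyrp1* and -0.28 for *Mlana*, adjusted p = 0.301 and 0.641). The sum was lowest in WT1 among WT mice under both conditions (422 and 325 CPM). With cytokines *Dct* (-0.47 ± 0.10, adjusted p = 0.0168), *Pmel* (-0.57 ± 0.12, adjusted p = 0.0168), *Tyr* (-0.43 ± 0.10, adjusted p = 0.0259, but 0.109 without WT5) and *Mlana* (-0.38 ± 0.11, adjusted p = 0.0923) were lower in KO than in WT cells, against 1.62% of all genes. *Mlana* passed without WT1 or KO8 and in no other fit that left out a mouse (WT2 to WT5 and KO1 to KO7, 0.102 to 0.282), nor with the mouse as a random block (0.109) or no filter (0.104), and was chosen after its values were seen. The 6 fibroblast markers summed to 5.75 ± 1.31 and 3.95 ± 0.987 CPM in WT and 4.10 ± 1.15 and 3.10 ± 0.984 CPM in KO cells, with *Pdgfra* the most abundant. *Col1a2* was called lower in both genotypes (in KO cells not without KO1, KO3, KO4, KO5 or KO8, adjusted p of 0.106 to 0.147), against 5.26% of all genes in WT and 4.55% in KO cells. The 5 endothelial markers summed to 2.07 ± 0.718 and 4.75 ± 0.725 CPM in WT and 3.05 ± 1.04 and 5.29 ± 0.407 CPM in KO cells, with *Emcn* at 0 in all libraries and *Pecam1* the most abundant. *Cdh5* and *Tek* were under the filter as well, so the sum rested mostly on *Pecam1* and *Kdr*. Whether endothelial cells were present was not tested. *Pecam1* and *Kdr* were called higher with cytokines (not *Pecam1* in KO cells without KO3, at 0.134, nor *Kdr* in WT cells without WT4 or WT5, at 0.106 and 0.197), against 8.65% of all genes in WT and 6.33% in KO cells. *Pecam1* was also called higher in basal KO cells, but not when only the basal libraries were fitted (adjusted p = 0.111), against 2.68% of all genes called in either direction. The part of these changes in the results for the class I genes was not tested.

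The members varied together to a limited degree within groups. After the 4 group means were removed, 31 of 45 pairs of members had a Pearson r over 0 across the 26 libraries, with a median of 0.21, from -0.45 for *Psmb10* and *Nlrc5* to 0.70 for *H2-K1* and *Tapbp*. The points share mice and library preparation, and the values are descriptions without a test. Most like the mean of the members by this r were *Aldoa* (0.809), *Proser2* (0.763), *Col18a1* (0.753), *Spint2* (0.726), *Cd151* (0.715), *Arhgap33* (0.711), *Aldh1l1* (0.708) and *Psme2* (0.708). The mean score of the members stood highest in basal WT1 (1.43) and basal KO1 (0.996), beside -0.879 to 0.767 in the other libraries, and the r values were not recomputed without them. In the 13 basal libraries alone the r of these 8 genes ranged from 0.716 for *Spint2* to 0.901 for *Col18a1*, and in the 13 treated ones from 0.390 for *Aldh1l1* to 0.770 for *Spint2*.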

How the data were processed

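Keratinocyte RNA from 13 mice was sequenced in 26 strand-specific libraries. The authors deposited counts per gene, made with STAR 2.7.10b, the mm39 genome and featureCounts 2.0.6 according to the submitters' processing notes. The authors also deposited log2 normalized counts, equal to the log2 of the count over a size factor plus 1, which for the members differed from values recomputed from the counts by at most 5.01e-05 and for 50 of the 56738 symbols by over 0.01. Of small counts (1 to 19) 82.6% were even, against 51.0% of counts of 5000 or more. Such a pattern arises when both mates of a pair are counted, but whether they were was not tested. Counting error may thus be understated, and the spread between mice was used.

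Genes with a mean normalized count over 10 (16893) were fitted over the 4 groups with edgeR 4.0.16 in R 4.3.3 (TMM, quasi-likelihood, Benjamini-Hochberg adjustment). A gene was called at an adjusted p under 0.1 and a fold over 1.5. CPM were normalized by TMM, log2 CPM within mice used a prior count of 1, and lengths are those of the GENCODE canonical transcript. Genes were named by a rule: the 10 members, *Pla2g4d*, *Psmb5*, *Psmb6*, *Psmb7* and *Irf1*, at most 6 called genes of each list and its largest change, the 8 genes most like the members, and of marker lists the most abundant gene and those at 0. A gene of this rule and a motif searched are not reported here. The members and lists were chosen with earlier results of these data known.

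The libraries of a mouse were paired by the genotype and replicate number in the sample titles. With group means removed, the correlation of both libraries of a mouse was 0.11 in the median (0.00 to 0.25). Among the treated libraries of its genotype, the basal library was most like its own in 10 of 13 mice. The exceptions were KO2 (r of 0.0797, against 0.0966 with another mouse), KO3 (0.0711 against 0.113) and KO4 (0.000509 against 0.186). No pair of libraries in a group was as close as sampling noise allows (chi-square per degree of freedom of 7.44 or more). The fit was also tested on simulated data. Alternatives were DESeq2 size factors, DESeq2 1.42.0, filterByExpr or no filter, fits of the 2 compared groups alone, the mouse as a random block (limma 3.58.1) or fixed block, a sex score, other thresholds, prior counts of 0.25 and 5, the authors' log2 values, and each mouse left out. Promoters were searched with Python 3.11.15 and aligned with Biopython 1.88. Litters and sequencing batches were not given. Since the KO line was bred as homozygotes, a difference between genotypes cannot be told apart from one between litters.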

Additional observations from a re-analysis of the deposited data

Results flagged for a closer look

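In 4 of 56 groups of libraries examined, 1 library stood apart from the others of its group. Chance alone gives about 1 in 20 such groups. *H2-K1* in basal WT1 was 165 CPM, against 124 to 133 CPM in the other basal WT libraries. *Psmb9* in basal WT1 was 2.29 CPM, against 0.593 to 1.03 CPM. *Nlrc5* in basal WT2 was 5.91 CPM, against 3.92 to 4.49 CPM. *Pla2g4d* in treated KO8 was 59.2 CPM, against 29.2 to 42.2 CPM in the other treated KO libraries.

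The response to the cytokines differed between genotypes by the edgeR test of the interaction for 4 of the 81 genes examined, all with a negative value, against 0.781% of all genes. The log2 differences of the responses (KO minus WT) were -0.35 for *Tapbp*, -0.22 for *Rela*, -0.45 for *Relb* and -0.25 for *Nfkb2*. *Tapbp* did not pass without WT2 to WT5, KO1 or KO5 taken singly (adjusted p of 0.135 to 0.194), *Rela* without WT2, WT3, WT4 or KO1 (0.112 to 0.141), and *Nfkb2* without WT2 to WT5, KO1 to KO3 or KO5 to KO7 (0.104 to 0.324). With no filter on low counts *Rela* (0.203) and *Nfkb2* (0.211) did not pass. Each of them was higher in basal KO than in basal WT cells, and the cause was not tested.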

How the results depend on the processing

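Of 149 log2 fold changes followed over 3073 alternatives, 2831 kept their direction and side of the threshold, 194 no longer passed, 16 newly passed and 32 changed sign, none of which had passed. The signs that changed were those of *Psmb5* in KO cells (-0.0481 to 0.0222 over mice left out) and of members in comparisons of genotypes. In basal cells these were *B2m* (-0.00142 to 0.0643), *Psmb9* (-0.000371 to 0.608) and *Psmb10* (-0.103 to 0.10, and 0.0185 with the random block). With cytokines it was *Tap2* (-0.0385 to 0.0432, 0.000788 with no filter, 0.00490 with filterByExpr, 0.00494 with only the 2 groups compared and 0.0134 with the random block). For the interaction they were *Tap1* (-0.00242 to 0.0855), *Psmb9* (-0.271 to 0.128, and 0.00329 with the sex score) and *Psmb10* (-0.168 to 0.00649). With DESeq2 size factors none of the 149 changed sign.

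The number of members called for the cytokine effect was 4 to 6 in WT and 5 to 6 in KO cells when a mouse was left out, beside 6 and 5. In WT cells it was 5 with no filter or an adjusted p under 0.05 (without *Nlrc5*) and 4 with only the 2 groups compared (without *Nlrc5* and *Psmb9*). With an adjusted p under 0.1 and no fold change, it was 9 in WT and 8 in KO cells, and the comparisons of genotypes gave 2 in basal cells, 1 with cytokines and 1 for the interaction. With a mouse left out, the genotype comparisons ranged from 0 to 1 in basal cells (*Psmb8* without WT1) and from 0 to 1 with cytokines (*Nlrc5* without WT1, WT2 or KO8). The cause was not tested.

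With the mouse as a block, used because libraries of a mouse are paired, the counts of called members were the same as without it. The comparisons of genotypes were fitted with the random block only. *B2m* in KO cells then passed (adjusted p = 0.0963 random, 0.0134 fixed), and its interaction passed with the fixed block (0.0168). With no filter *Rela* and *Nfkb2* lost their interactions (adjusted p = 0.203 and 0.211). Counts of the lists were not recomputed under the alternatives, while the genes followed from them were.

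Low counts limit *Psmb9* (30 to 218 per library) and *Nlrc5* (59 to 299), and most class II genes more so. With 5 WT mice, single mice decided several WT calls. Whether members share reads with other genes was not tested.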
